A study of Sus scrofa with 9 samples.

Results

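The genes described here are 48 genes of the G2 phase and of mitosis, picked by symbol from a count table of 27339 pig genes. They cover the cyclins and kinases of mitotic entry, the spindle, the spindle checkpoint, the kinetochore, the chromosomal passenger complex, cytokinesis, partners of the anaphase-promoting complex and 3 genes of transcription and chromosome structure. All 48 were in the table, and all 48 had enough counts to be tested among 15956 genes. The lowest count of a member in any library was 52.

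The study made 9 RNA-seq libraries from messenger RNA of primary myoblasts of the Göttingen minipig at passages 7 to 9. In 3 libraries the cells carried an inducible human DUX4 transgene, in 3 an inducible pig DUXC transgene and in 3 an inducible GFP transgene, the control. Every group, the control included, received doxycycline at 1 µg/mL for 16 h, so no library is free of the drug. DUX4 and DUXC are double homeobox transcription factors, and misexpression of DUX4 in muscle underlies facioscapulohumeral muscular dystrophy. The labels name neither the vector nor whether the cells of a group were 1 clone or a pool. Each transgene was carried by its own cells and none was left uninduced. An effect of a transgene and a difference between the cell populations therefore cannot be told apart. Words such as rose, raised, fell and responded describe levels against the GFP libraries only. Nothing in them tells whether replicate libraries are separate cultures, and the spread behind each p-value may thus be a technical one.

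A cell enters mitosis when CDK1, bound to cyclin B, is freed of its inhibitory phosphates, and it leaves mitosis when the anaphase-promoting complex marks securin and the cyclins for destruction. The genes of these steps are transcribed late in the cell cycle. In resting cells they are held down by the DREAM complex, which joins RB-like proteins and E2F factors to the MuvB core, and in cycling cells the same core works with B-MYB and FOXM1 to switch them on. Their messages are therefore widely used as a sign of proliferation in cultured myoblasts, which leave the cycle when they differentiate.

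Total counts ran from 36580573 to 44420895 per library. Levels are normalised read counts (CPM), scaled to a library size adjusted by TMM, edgeR's composition factor. They depend on transcript length, so they are compared between groups and not between genes. Markers of the labelled cell type were mostly scarce: with GFP the satellite cell factor PAX7 had 0.402 CPM and the myogenic factor MYF5 0.705 CPM, MYOD1 and MYOG were near 0 in every group, and NCAM1 (86.4 CPM) made up most of the summed level of the 10 myoblast markers. That sum was 112 to 122 CPM with GFP, 136 to 140 CPM with DUX4 and 84.8 to 87.4 CPM with DUXC. Of the 7 that could be tested, 3 were called higher (42.9%) and 2 lower (28.6%) with DUX4, beside 32.9% and 31.9% of all tested genes. With DUXC 4 were higher (57.1%: PAX7, PAX3, MYF5 and MSC) and 3 lower (42.9%), NCAM1 (55.8 CPM) among the latter. Over all tested genes these shares were 40.2% and 42.3%. The 9 fibroblast markers in the table were abundant and lower with either transgene, summing to 50129 to 53257 CPM with GFP, 29148 to 32891 CPM with DUX4 and 25729 to 25750 CPM with DUXC. All 9 were called lower with DUX4, where 31.9% of all tested genes were, and with DUXC 7 were called lower and 2 higher, beside 42.3% and 40.2% of all tested genes. The 8 smooth muscle and pericyte markers summed to 2842 to 3047 CPM with GFP, 1169 to 1274 CPM with DUX4 and 681 to 708 CPM with DUXC. Endothelial markers (7 genes, CDH5 without counts with GFP) summed to 17.3 to 17.9, 12.6 to 13.5 and 33.6 to 36.2 CPM in the same order, and immune markers (7 genes, PTPRC without counts with GFP and DUX4, CD3E with GFP) to 9.99 to 12.2, 7.40 to 8.41 and 6.60 to 7.26 CPM. Adipocyte markers (5 genes, ADIPOQ and PLIN1 without counts with GFP and DUX4, FABP4 with GFP) summed to 1.05 to 1.30, 2.72 to 3.40 and 36.0 to 40.3 CPM, and the 5 markers of differentiated muscle in the table (MYMK without counts with DUX4) to 1.36 to 1.82, 0.513 to 0.734 and 1.29 to 1.73 CPM. Single markers did not all follow these sums, with the shares of all tested genes as above. Of the 8 smooth muscle and pericyte markers, 2 were called higher and 5 lower with DUX4, and 2 and 6 with DUXC. Of 4 endothelial markers tested, 2 were higher and 1 lower with DUX4, and 3 and 1 with DUXC. Of 5 immune markers tested, 2 were higher and 2 lower with each transgene. Of 3 adipocyte markers tested, 2 were higher and 1 lower with DUX4, and all 3 higher with DUXC. The part of these marker changes in the results that follow was not tested. In bulk RNA, a change in the share of cells in G2 or mitosis and a change in the RNA of each cell cannot be told apart.

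The whole set of G2 and mitosis genes was higher with human DUX4 than with GFP, and most of it was higher by less with pig DUXC. The summed level of the 48 genes was 571 to 585 CPM in the GFP libraries, 3233 to 3466 CPM in the DUX4 libraries and 1656 to 1782 CPM in the DUXC libraries. No library of one group came near those of another. As a share of all counts, the set took 0.0556% to 0.0562% with GFP, 0.316% to 0.342% with DUX4 and 0.175% to 0.187% with DUXC. Much of the DUXC sum came from a few genes: without MAD2L1, CDC20, CKS2, CDC25C and TOP2A, singled out after their values were seen, the other 43 summed to 500 to 510 CPM with GFP, 2798 to 2997 CPM with DUX4 and 842 to 895 CPM with DUXC.

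With DUX4 against GFP, all 48 genes were called higher in edgeR's quasi-likelihood test (two-sided, Benjamini-Hochberg adjusted p under 0.05), in a comparison that called 32.9% of all tested genes higher and 31.9% lower. All 48 rose at least 2-fold, as 10.5% of all tested genes did, and 9 rose at least 8-fold (2.97% of all). For each of the 48, every DUX4 library lay above every GFP library, where 34% of all genes were apart in this direction. The median log2 fold change was 2.78, with quartiles of 2.43 and 2.92, beside a median of 0.0035 over all tested genes. The largest adjusted p among the 48 was 7.99e-20, for CENPE.

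With DUXC against GFP, 44 genes were called higher and 3 lower, in a comparison that called 40.2% of all tested genes higher and 42.3% lower. The 3 lower genes were CKS1B, ANLN and SPC24, and the 1 gene not called was SPC25. The DUXC libraries all lay above the GFP libraries in 43 of the 48, where 40.7% of all genes were apart in this direction. A rise of at least 2-fold was seen in 21 of the 48, where 21.3% of all tested genes rose so far, and a rise of at least 8-fold in MAD2L1, CDC20 and CKS2 (8.89% of all). The median log2 fold change was 0.88, with quartiles of 0.54 and 1.49, beside -0.031 over all tested genes. The SD of the members' log2 fold changes was 1.02 with DUXC and 0.55 with DUX4. Over all tested genes it was likewise wider with DUXC, at 2.10 against 1.30 with DUX4. The 2 comparisons share the GFP libraries, so their values are given side by side and are not independent.

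**Figure D1:**
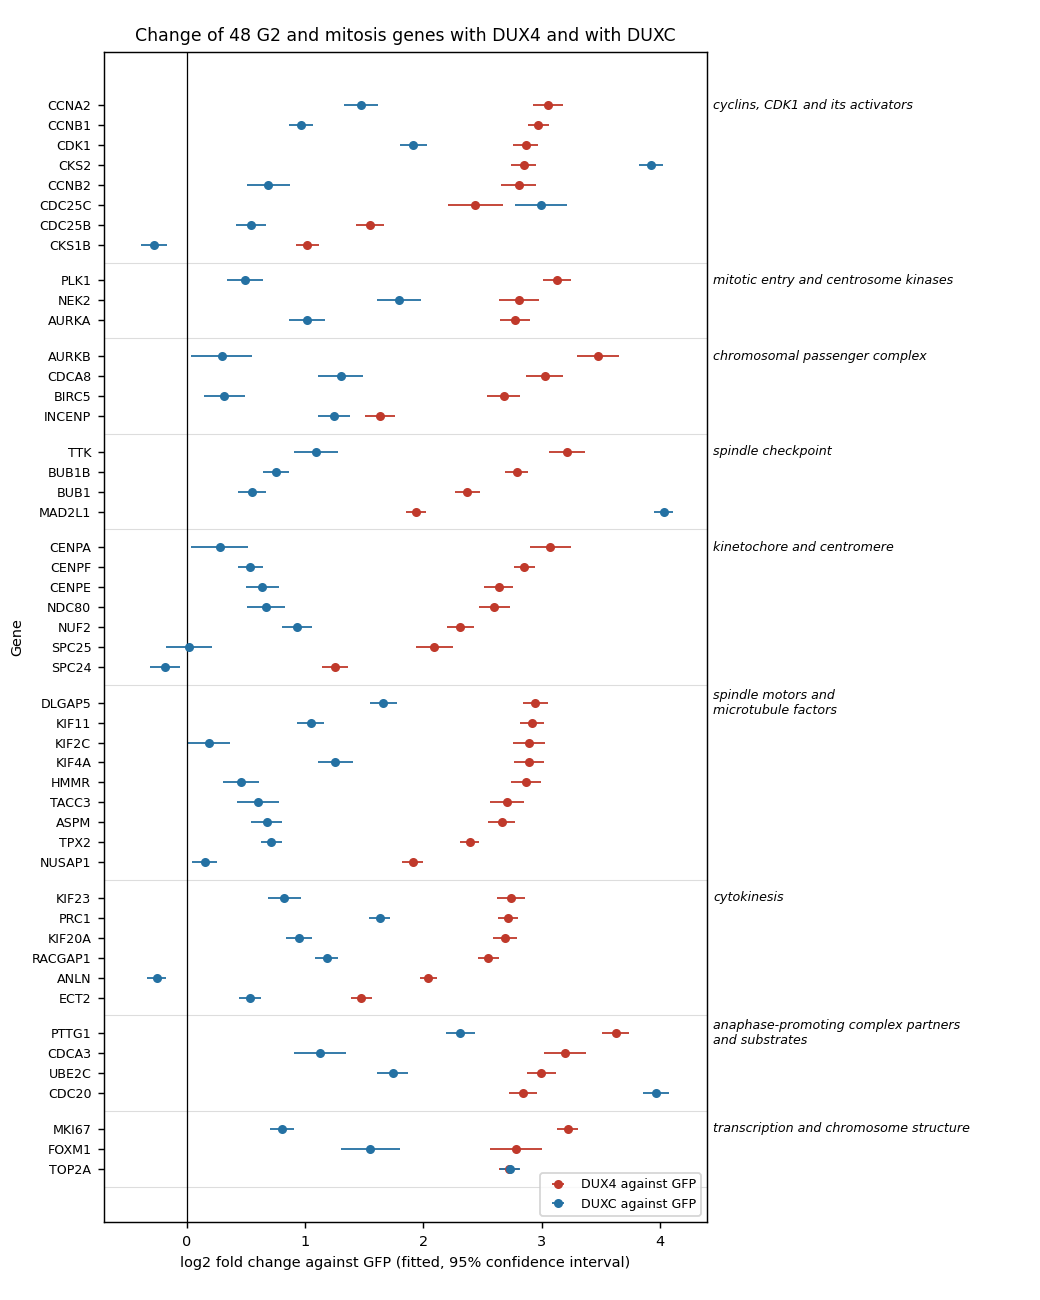
Fitted log2 fold change against GFP (horizontal axis) of each of the 48 genes (vertical axis, grouped by role), with 95% confidence intervals, for DUX4 (red) and DUXC (blue). The DUX4 points run from 1.02 (CKS1B) to 3.63 (PTTG1), and the DUXC points run from -0.28 (CKS1B) to 4.03 (MAD2L1).

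Set against each other, DUX4 gave the higher level in 43 genes, DUXC in 4, and TOP2A was not called, in a comparison that called 40.8% of all tested genes higher with DUX4 and 41.6% lower. The difference was at least 2-fold towards DUX4 in 40 genes (9.83% of all tested genes) and at least 2-fold towards DUXC in MAD2L1, CDC20 and CKS2 (20.7% of all). The fourth gene higher with DUXC was CDC25C. The median log2 difference was 1.75, beside -0.0078 over all tested genes. In 39 genes the order was the same, with GFP lowest, DUXC between and DUX4 highest, and each step passed the test. The share of all tested genes with this order was not counted. For AURKB, CENPA, KIF2C and NUSAP1 the step from GFP to DUXC was lost in some alternative fits, given below.

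**Figure D2:**
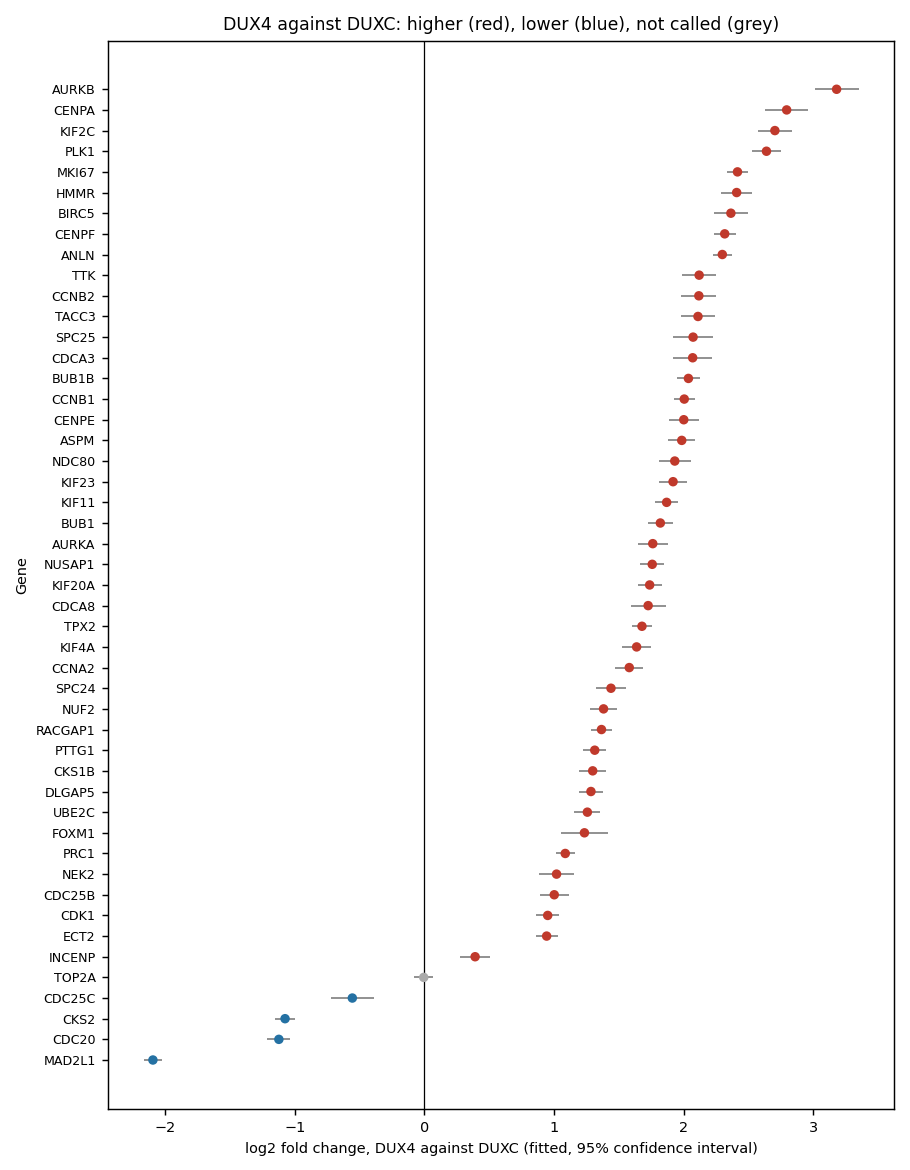
Fitted log2 fold change of DUX4 against DUXC (horizontal axis, 95% confidence intervals) for the 48 genes (vertical axis), sorted. Genes called higher with DUX4 are red (43), genes called lower are blue (4) and TOP2A, at -0.01, is grey; AURKB lies farthest to the right at 3.18 and MAD2L1 farthest to the left at -2.09.

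The genes of the CDK1 engine rose with DUX4 in 8 of 8 (32.9% of all tested genes), by a median of 2.83 on the log2 scale. With DUXC 7 of 8 rose (40.2% of all) and 1 fell (42.3% of all), with a median of 1.22. CDK1, the kinase that drives entry into mitosis, had 8.93, 8.35 and 8.01 CPM with GFP, 62.8, 59.8 and 61.6 CPM with DUX4 and 31.2, 33.2 and 30.9 CPM with DUXC. Its groups did not overlap, and its log2 fold changes were 2.86 (SE 0.0533) with DUX4 and 1.91 (SE 0.0568) with DUXC. CCNB1, the cyclin that partners CDK1 at mitotic entry (chromosome 16, 47338239 to 47348385), had 16.9, 16.2 and 18.8 CPM with GFP, 138, 137 and 132 CPM with DUX4 and 31.8, 34.3 and 35.2 CPM with DUXC. The DUX4 libraries lay far above both other groups, with log2 fold changes of 2.97 (SE 0.0446) with DUX4 and 0.97 (SE 0.0495) with DUXC. CCNA2, cyclin A of S and G2 phase, had 5.41, 5.93 and 5.26 CPM with GFP, 49.0, 45.3 and 43.4 CPM with DUX4 and 15.4, 15.7 and 14.9 CPM with DUXC. Its groups were fully apart, and its log2 change with DUX4, 3.05, was the largest of the 8. The second B-type cyclin gene CCNB2 rose by 2.81 with DUX4 and 0.69 with DUXC on the log2 scale, and the phosphatase gene CDC25B, which starts the activation of CDK1, by 1.55 and 0.55.

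Within this engine, CKS2, CKS1B and CDC25C parted the transgenes. CKS1B and CKS2 encode the small subunits that bind CDK1 and help it recognise its substrates. CKS2 (chromosome 14, 904762 to 910292) had 11.4, 11.3 and 12.1 CPM with GFP, 87.5, 83.4 and 79.6 CPM with DUX4 and 163, 185 and 179.6 CPM with DUXC. All 3 DUXC libraries were above all DUX4 libraries, a log2 difference of DUX4 against DUXC of -1.08 (SE 0.039, adjusted p = 6.85e-25). CKS1B (chromosome 4, 94815769 to 94819583) had 20.0, 19.3 and 20.0 CPM with GFP, 40.5, 39.5 and 40.2 CPM with DUX4 and 15.7, 17.3 and 15.8 CPM with DUXC. Its DUXC libraries were all below the control, a log2 fold change of -0.28 (SE 0.0551, adjusted p = 1.15e-05), and its rise of 1.02 with DUX4 was the smallest of the 48. So the paralogs CKS1B and CKS2 moved in opposite directions with DUXC and in the same direction with DUX4. CDC25C, the phosphatase that completes CDK1 activation (chromosome 2, 140289156 to 140323696), had 2.25, 2.29 and 1.33 CPM with GFP, 11.0, 10.3 and 10.7 CPM with DUX4 and 14.5, 17.2 and 15.3 CPM with DUXC. Again the DUXC libraries lay above the DUX4 libraries (log2 difference -0.56, SE 0.081, adjusted p = 8.09e-08), and the rise over GFP was 3.00 with DUXC and 2.44 with DUX4 on the log2 scale.

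CKS2 overlaps the uncharacterised locus LOC102165122, which had mean levels of 0.297, 1.70 and 4.35 CPM with GFP, DUX4 and DUXC, far below CKS2 itself. CKS1B overlaps the adaptor gene SHC1, which had 187, 174 and 154 CPM and log2 fold changes of -0.11 with DUX4 and -0.28 with DUXC. Whether the counting used strand is not given in the sources used here, so CKS1B counts may hold SHC1 reads. In all, 19 of the 48 genes overlap another gene in RefSeq's annotation of Sscrofa11.1. The same limit applies to CCNA2, AURKA, HMMR and TACC3, among others, which overlap EXOSC9, CSTF1, NUDCD2 and TMEM129. In this order, the overlapping genes had mean levels of 34.8, 24.3, 25.2 and 33.3 CPM with GFP. Their log2 fold changes were 0.30, 0.19, 0.16 and 0.20 with DUX4 and 0.88, 0.60, -0.09 and -0.42 with DUXC.

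**Figure D3:**
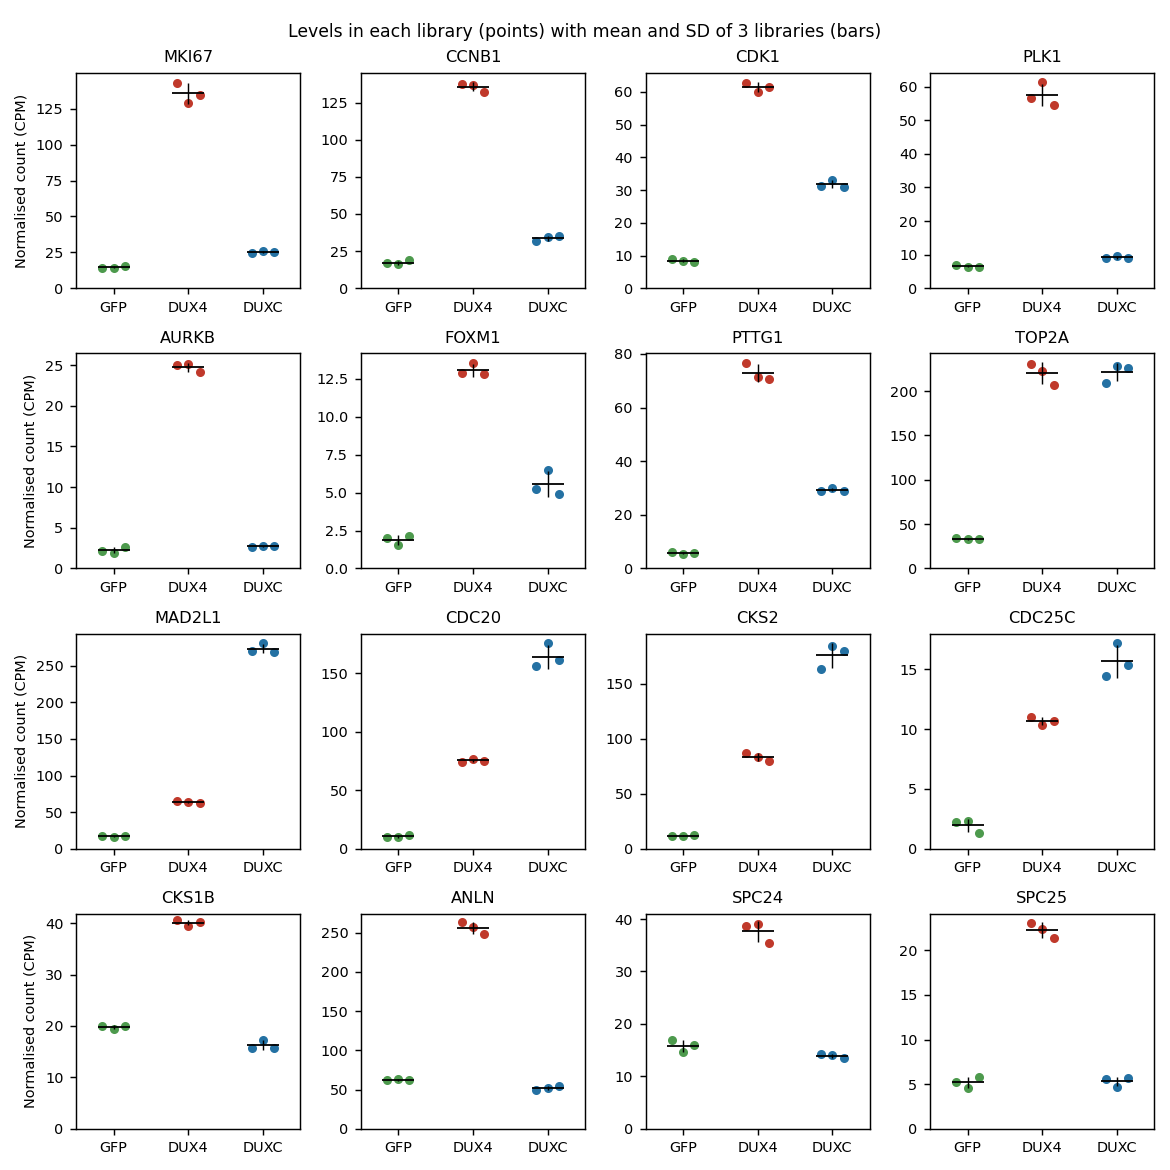
Normalised count (CPM, vertical axis from 0) of 16 of the genes in each GFP (green), DUX4 (red) and DUXC (blue) library, with the mean and SD of 3 libraries as black bars. In MAD2L1, CDC20, CKS2 and CDC25C the DUXC points lie above the DUX4 points, in TOP2A they overlap, and in CKS1B, ANLN and SPC24 they lie below the GFP points.

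The 3 kinases of mitotic entry and the centrosome rose with either transgene, as 32.9% of all tested genes did with DUX4 and 40.2% with DUXC. PLK1, the Polo-like kinase that triggers entry and spindle assembly, had 6.98, 6.29 and 6.44 CPM with GFP, 56.7, 61.2 and 54.7 CPM with DUX4 and 8.91, 9.67 and 9.13 CPM with DUXC. The DUXC libraries were only a little above the control, at a log2 fold change of 0.49 (SE 0.0759, adjusted p = 1.06e-07), against 3.13 (SE 0.06) with DUX4. AURKA, the Aurora kinase of the spindle poles, had 5.97, 5.98 and 6.19 CPM with GFP, 41.2, 42.8 and 40.4 CPM with DUX4 and 11.1, 13.3 and 12.2 CPM with DUXC. Its groups were apart, with log2 fold changes of 2.78 and 1.02. NEK2, which separates the centrosomes, had 2.94, 3.54 and 3.67 CPM with GFP, 25.6, 22.7 and 22.9 CPM with DUX4 and 10.8, 12.8 and 11.5 CPM with DUXC. Among the 3 kinases it rose most with DUXC, by 1.79 on the log2 scale, and by 2.81 with DUX4.

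The chromosomal passenger complex corrects faulty attachments of chromosomes to the spindle. It rose in 4 of 4 genes with either transgene (32.9% of all tested genes with DUX4, 40.2% with DUXC), and its subunits responded unequally. AURKB, its kinase, had 2.13, 1.90 and 2.64 CPM with GFP, 25.0, 25.1 and 24.1 CPM with DUX4 and 2.69, 2.72 and 2.78 CPM with DUXC. Its DUXC libraries lay just above the highest control library. The log2 fold change of AURKB was 3.47 (SE 0.0879) with DUX4 and 0.29 (SE 0.127, adjusted p = 0.0308) with DUXC. INCENP, the scaffold of the complex, had 9.08, 8.50 and 9.50 CPM with GFP, 28.7, 28.5 and 26.8 CPM with DUX4 and 20.1, 23.6 and 20.3 CPM with DUXC. Its rises were of closer size, 1.63 and 1.24 on the log2 scale, and the difference between the transgenes, 0.39 (SE 0.0566, adjusted p = 2.53e-08), was the smallest of the 43 genes higher with DUX4. CDCA8, the subunit borealin, had 3.23, 3.44 and 3.16 CPM with GFP, 26.2, 28.0 and 25.9 CPM with DUX4 and 8.42, 8.50 and 7.29 CPM with DUXC. It rose most in the complex with DUXC, by 1.30, and by 3.03 with DUX4. BIRC5, which encodes survivin, rose by 2.68 with DUX4 and 0.32 with DUXC. The AURKB call with DUXC did not hold without GFP replicate 1 (adjusted p = 0.0984), GFP replicate 2 (0.201), DUXC replicate 2 (0.0501) or DUXC replicate 3 (0.0665), nor with limma-voom (0.0528) or without a filter on low counts (0.0819).

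The spindle checkpoint, which delays anaphase until every chromosome is attached, held the gene that responded most to DUXC. MAD2L1, the checkpoint protein that sequesters CDC20 (chromosome 8, 103927358 to 103936669), had 17.3, 15.8 and 17.1 CPM with GFP, 65.2, 64.2 and 62.8 CPM with DUX4 and 271, 281 and 269 CPM with DUXC. The 3 groups were widely apart, with DUXC highest. Its rise was 16.4-fold with DUXC (log2 4.03, SE 0.04, adjusted p = 8.38e-53) and 3.83-fold with DUX4 (log2 1.94, SE 0.0416), and its level was 4.27-fold higher with DUXC than with DUX4 (adjusted p = 1.48e-43). The other checkpoint genes showed the reverse order. TTK, the kinase MPS1 that starts the checkpoint signal, had 4.65, 4.31 and 5.47 CPM with GFP, 49.6, 42.5 and 41.7 CPM with DUX4 and 9.71, 10.5 and 10.6 CPM with DUXC. TTK was highest with DUX4 in every library, and rose by 3.21 and 1.09 on the log2 scale. BUB1, a kinase of the unattached kinetochore, had 13.5, 13.2 and 15.3 CPM with GFP, 73.1, 74.2 and 70.2 CPM with DUX4 and 19.0, 21.4 and 21.2 CPM with DUXC. It rose least of the 4 with DUXC, by 0.55, against 2.37 with DUX4, and its relative BUB1B, which encodes BUBR1, rose by 0.75 and 2.79.

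The 7 kinetochore and centromere genes all rose with DUX4 (median log2 2.60), as 32.9% of all tested genes did. None of them rose 2-fold with DUXC (median 0.54), where 21.3% of all tested genes did. With DUXC 5 were called higher (40.2% of all), 1 lower (42.3% of all) and 1 was not called. NDC80, NUF2, SPC24 and SPC25 encode the complex that grips spindle microtubules. NUF2 had 9.03, 8.60 and 8.75 CPM with GFP, 45.1, 44.3 and 41.6 CPM with DUX4 and 16.3, 16.4 and 17.6 CPM with DUXC. It had the largest change of the 7 genes with DUXC, 0.93 on the log2 scale, and rose by 2.31 with DUX4. NDC80 itself rose by 0.67 with DUXC and 2.60 with DUX4. The other subunits of the complex did not share the rise with DUXC. SPC24 (chromosome 2, 69884304 to 69890314) had 16.9, 14.6 and 15.9 CPM with GFP, 38.7, 39.0 and 35.4 CPM with DUX4 and 14.3, 14.0 and 13.5 CPM with DUXC. Its DUXC libraries all lay below the lowest control library, though by little, and the log2 fold changes were 1.25 (SE 0.0551) with DUX4 and -0.19 (SE 0.0624, adjusted p = 0.00610) with DUXC. SPC25 (chromosome 15, 75339171 to 75371275) had 5.26, 4.57 and 5.83 CPM with GFP, 23.1, 22.4 and 21.3 CPM with DUX4 and 5.58, 4.70 and 5.63 CPM with DUXC. Its DUXC and GFP libraries overlapped, at a log2 fold change of 0.02 with a 95% interval of -0.17 to 0.22 (adjusted p = 0.844), while DUX4 raised it by 2.09.

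CENPA, the histone variant that marks the centromere, had 2.42, 2.59 and 2.44 CPM with GFP, 20.0, 21.6 and 21.2 CPM with DUX4 and 3.23, 2.84 and 2.98 CPM with DUXC. The rise with DUX4, 3.07 on the log2 scale, was the largest of the kinetochore group, and the rise with DUXC was 0.28 (SE 0.119, adjusted p = 0.0289). CENPE, a motor that moves chromosomes to the spindle equator, and CENPF, a large kinetochore protein, rose by 2.64 and 2.85 with DUX4 and by 0.64 and 0.54 with DUXC. The SPC24 call with DUXC did not hold with DESeq2's size factors (adjusted p = 0.106), with library size alone (0.367), with DESeq2 (0.156) or without GFP replicate 1 (0.0569). The CENPA call did not hold without DUXC replicate 1 (0.118), GFP replicate 1 (0.0817) or GFP replicate 3 (0.0734), with limma-voom (0.0606) or without a filter on low counts (0.0917).

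Spindle motors and microtubule factors rose in 9 of 9 genes with either transgene (32.9% of all tested genes with DUX4, 40.2% with DUXC). The medians were 2.87 with DUX4 and 0.68 with DUXC. DLGAP5, which bundles the microtubules that hold chromosomes, had 12.1, 12.7 and 11.1 CPM with GFP, 100.4, 89.5 and 86.7 CPM with DUX4 and 36.7, 38.7 and 38.2 CPM with DUXC. It rose most of the 9 with each transgene, by 2.95 (SE 0.0536) with DUX4 and 1.66 (SE 0.0577) with DUXC, and its groups were apart. NUSAP1, a microtubule-binding protein near chromosomes, had 20.4, 21.2 and 19.3 CPM with GFP, 78.6, 77.5 and 72.8 CPM with DUX4 and 22.4, 21.9 and 23.5 CPM with DUXC. It rose least of the 9 with each, by 1.91 (SE 0.0458) with DUX4 and by 0.15 (SE 0.0515, adjusted p = 0.00673) with DUXC. The motor genes KIF11, KIF4A and KIF2C rose by 2.92, 2.89 and 2.89 with DUX4 and by 1.05, 1.26 and 0.19 with DUXC. KIF2C, whose product takes microtubules apart, was the only one of the 44 raised genes whose DUXC and GFP libraries overlapped, and its adjusted p was 0.0445. The spindle assembly factor TPX2, the hyaluronan receptor and spindle protein HMMR, the pole protein ASPM and the microtubule stabiliser TACC3 rose by 2.39, 2.87, 2.66 and 2.71 with DUX4 and by 0.71, 0.46, 0.68 and 0.60 with DUXC.

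The NUSAP1 call with DUXC did not hold without GFP replicate 3 (adjusted p = 0.0785) or without a filter on low counts (0.0568). NUSAP1 overlaps OIP5, a centromere protein gene that had mean levels of 204, 163 and 171 CPM with GFP, DUX4 and DUXC and so moved the other way. The KIF2C call did not hold in 7 of the 9 fits that left out 1 library: without DUX4 replicates 1, 2 and 3 (adjusted p = 0.0645, 0.0622 and 0.0600), DUXC replicates 1 and 2 (0.153 and 0.106) and GFP replicates 1 and 3 (0.0989 and 0.173). It was also lost with upper-quartile factors (0.0617), limma-voom (0.0754) and no filter on low counts (0.164).

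Genes of cytokinesis, the final splitting of the cell, rose in 6 of 6 with DUX4 (median 2.62), while with DUXC 5 rose and ANLN fell (median 0.89). Over all tested genes, 32.9% rose with DUX4, and 40.2% rose and 42.3% fell with DUXC. ANLN, the scaffold anillin of the contractile ring (chromosome 18, 37647952 to 37710939), had 61.5, 62.9 and 62.1 CPM with GFP, 263, 257 and 248 CPM with DUX4 and 48.9, 52.4 and 54.9 CPM with DUXC. Its DUXC libraries all lay below the control, a log2 fold change of -0.26 (SE 0.038, adjusted p = 4.48e-08), and its DUX4 libraries far above it, at 2.04 (SE 0.0358). PRC1, which bundles the midzone of the spindle, had 18.9, 17.2 and 19.5 CPM with GFP, 125, 121 and 120.2 CPM with DUX4 and 56.8, 58.6 and 56.9 CPM with DUXC. It rose most of the 6 with DUXC, by 1.63, and by 2.72 with DUX4. KIF23, a motor of the central spindle, had 10.7, 10.7 and 9.37 CPM with GFP, 72.3, 68.7 and 65.3 CPM with DUX4 and 16.3, 18.4 and 19.8 CPM with DUXC. Its rise of 2.74 with DUX4 was the largest of the 6, and DUXC raised it by 0.83. ECT2, which activates RhoA at the cleavage plane, had 24.4, 26.9 and 25.7 CPM with GFP, 74.5, 71.8 and 67.8 CPM with DUX4 and 37.6, 36.9 and 37.0 CPM with DUXC. It rose least with DUX4, by 1.47, and by 0.53 with DUXC. RACGAP1, the partner of KIF23, and the motor gene KIF20A rose by 2.55 and 2.69 with DUX4 and by 1.18 and 0.95 with DUXC.

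Partners and substrates of the anaphase-promoting complex had the highest median of the 9 role groups with each transgene, 3.10 with DUX4 and 2.03 with DUXC. All 4 rose at least 2-fold with each, as 10.5% of all tested genes did with DUX4 and 21.3% with DUXC. CDC20, the activator that opens anaphase and the protein MAD2L1 holds back (chromosome 6, 167886266 to 167890587), had 9.94, 9.68 and 11.9 CPM with GFP, 74.3, 76.7 and 75.4 CPM with DUX4 and 156, 176 and 161 CPM with DUXC. All 3 DUXC libraries were above all DUX4 libraries. CDC20 rose 15.6-fold with DUXC (log2 3.97, SE 0.055) and 7.18-fold with DUX4 (log2 2.85, SE 0.057), and the difference of DUX4 against DUXC was -1.12 (SE 0.043, adjusted p = 5.55e-20). PTTG1, the securin that restrains the separation of sister chromatids until anaphase, had 6.31, 5.47 and 5.88 CPM with GFP, 76.7, 71.3 and 70.6 CPM with DUX4 and 28.9, 29.9 and 29.1 CPM with DUXC. In contrast to CDC20, it was highest with DUX4, where its change was the largest of the 48, and it rose by 2.31 (SE 0.0617) with DUXC. CDCA3, a trigger of mitotic entry that the complex degrades, had 2.33, 2.47 and 2.80 CPM with GFP, 22.2, 24.0 and 23.3 CPM with DUX4 and 5.11, 6.20 and 5.23 CPM with DUXC. Its groups were apart, with rises of 3.20 and 1.13, and UBE2C, the enzyme that supplies the complex with ubiquitin, rose by 3.00 and 1.74.

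Of the 3 genes of transcription and chromosome structure, MKI67 and FOXM1 were highest with DUX4, and TOP2A was not called between the transgenes. MKI67, the proliferation antigen that coats mitotic chromosomes, had 14.0, 14.3 and 15.3 CPM with GFP, 143, 129 and 135 CPM with DUX4 and 24.6, 26.1 and 25.5 CPM with DUXC. It was 5.33-fold higher with DUX4 than with DUXC (log2 2.42, SE 0.0417, adjusted p = 1.46e-42), and DUXC raised it by 0.81. TOP2A, the topoisomerase that untangles chromosomes (chromosome 12, 22001300 to 22028452), had 34.4, 32.8 and 32.7 CPM with GFP, 231, 223 and 207 CPM with DUX4 and 209, 228 and 226 CPM with DUXC. Its DUX4 and DUXC libraries overlapped, and it rose by 2.73 on the log2 scale with each. The difference between the transgenes was -0.01 with a 95% interval of -0.08 to 0.07 (adjusted p = 0.895), and it was called lower with DUX4 when library size alone was used for scaling (-0.11, adjusted p = 0.00709). FOXM1, the transcription factor that switches on late cell cycle genes, had 1.98, 1.54 and 2.16 CPM with GFP, 12.9, 13.6 and 12.8 CPM with DUX4 and 5.24, 6.51 and 4.89 CPM with DUXC. The 3 groups were apart, and it rose by 2.79 (SE 0.109) with DUX4 and 1.55 (SE 0.125) with DUXC.

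Genes around the set, taken from lists written down by pathway, followed it to different degrees. Their counts stand beside the shares of all tested genes, 32.9% higher and 31.9% lower with DUX4 and 40.2% higher and 42.3% lower with DUXC. Of 58 further mitosis genes, 56 (96.6%) rose and 2 (3.45%) fell with DUX4, with a median of 2.39, and 45 (77.6%) rose and 7 (12.1%) fell with DUXC, with a median of 0.74. The nuclear import gene KPNA2, the spindle gene CKAP2 and the cytokinesis kinase CIT rose with DUX4 by 1.64, 2.84 and 2.76, and with DUXC the changes of CKAP2 and CIT were 2.07 and 1.55 and KPNA2 was not called (-0.02, adjusted p = 0.599). OIP5 and the kinetochore gene MIS12 fell with DUX4, by 0.33 and 0.38 on the log2 scale. OIP5 overlaps NUSAP1, and the strand setting is not given in the sources used here, so OIP5 counts may hold reads of another transcript. With DUXC, CDCA2, which recruits a phosphatase to chromosomes, and the centriole gene STIL rose by 3.19 and 2.81, above their rises of 2.38 and 2.39 with DUX4. The 2 were lower with DUX4 than with DUXC, by 0.81 and 0.42. The centromere genes CENPH and OIP5 fell with DUXC, with log2 fold changes of -0.55 and -0.26.

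**Figure D4:**
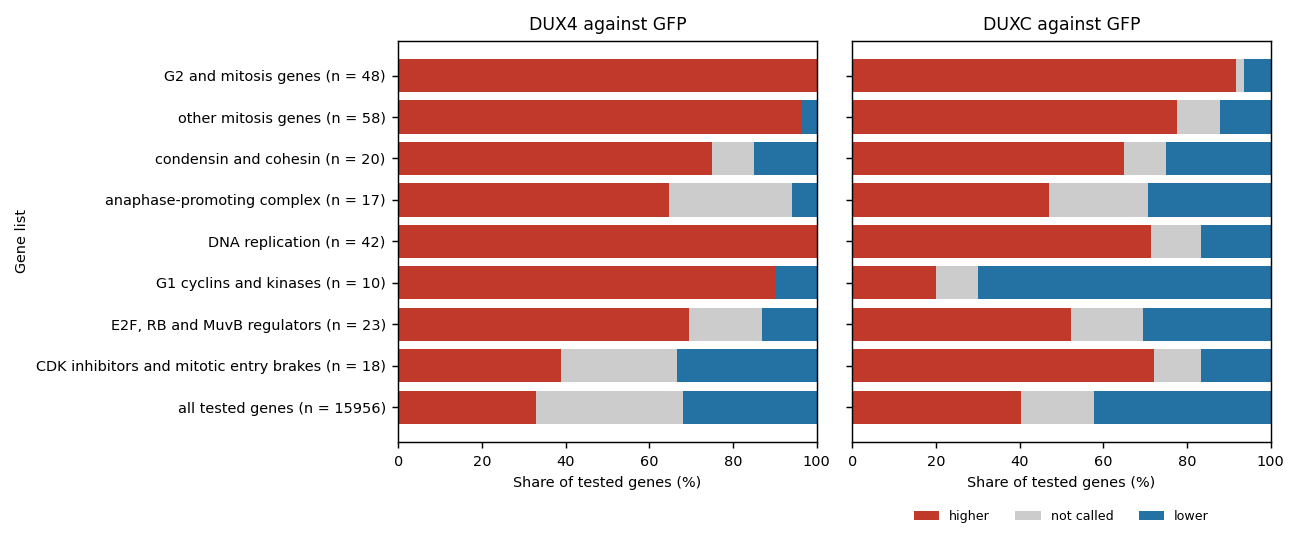
Share of tested genes (horizontal axis, %) called higher (red), not called (grey) or called lower (blue) against GFP for the G2 and mitosis genes, 7 pathway lists and all tested genes (vertical axis, number tested in brackets), with DUX4 on the left and DUXC on the right. The G2 and mitosis genes are 48 of 48 higher with DUX4 and 44 of 48 with DUXC, and the G1 cyclins and kinases are 9 of 10 higher with DUX4 and 2 of 10 with DUXC.

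Condensin and cohesin, the rings that compact and hold chromosomes, rose in 15 of 20 genes (75%, against 32.9% of all genes) and fell in 3 (15%, against 31.9%) with DUX4, and rose in 13 (65%, against 40.2%) and fell in 5 (25%, against 42.3%) with DUXC. The condensin genes NCAPG, SMC4 and SMC2 rose by 2.94, 1.79 and 1.75 with DUX4 and by 2.00, 0.82 and 1.27 with DUXC. The cohesin subunit gene STAG2 fell with each, by 0.30 and 0.33, while SMC1A rose by 0.60 with DUX4 and fell by 0.33 with DUXC. The cohesin loader NIPBL had log2 fold changes of -0.09 with DUX4 (adjusted p = 0.0197) and 0.86 with DUXC, the acetyltransferase ESCO1 -0.16 and 0.47, and PDS5A -0.19 with DUXC. The PDS5A call was lost with library size alone (-0.06, adjusted p = 0.0743). The number of genes lower with DUXC was 3 without DUXC replicate 2 or without GFP replicate 2, and the number lower with DUX4 was 1 without GFP replicate 2, where ESCO1 (adjusted p = 0.0681) and NIPBL (0.123) were lost. The NIPBL call was also lost without DUX4 replicate 2 (0.0821), DUX4 replicate 3 (0.0958) or GFP replicate 1 (0.0584), with DESeq2's size factors (0.0943), with library size alone (0.0973), in DESeq2 (0.140) and at a threshold of 0.01.

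The core of the anaphase-promoting complex and its regulators had 11 of 17 genes higher (64.7%, against 32.9% of all genes) and 1 lower with DUX4, with a median of 0.28. With DUXC, 8 were higher (47.1%, against 40.2%) and 5 lower (29.4%, against 42.3%), with a median of 0.07, so the list as a whole lay near all genes and only its single members are described. CDC26, a small subunit that stabilises the complex, went from 22.8 ± 0.856 CPM (SD, n = 3) with GFP to 71.0 ± 1.30 CPM with DUX4 and 438 ± 16.7 CPM with DUXC, log2 fold changes of 1.64 and 4.26. Like MAD2L1, CDC20 and CKS2 it was higher with DUXC than with DUX4. The inhibitor FBXO5, which restrains the complex before mitosis, and the ubiquitin chain enzyme UBE2S rose by 2.30 and 1.11 with DUX4, FBXO5 rose by 1.37 with DUXC and UBE2S was not called (0.07, adjusted p = 0.202). FZR1, the activator of late mitosis and G1, rose by 0.47 and 0.51. With DUXC, ANAPC11 and ANAPC10 rose by 0.62 and 1.12, and ANAPC13, ANAPC16 and ANAPC7 fell by 0.79, 0.76 and 0.52, the last of which fell by 0.14 with DUX4.

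Regulators of the E2F, RB and MuvB families rose in 16 of 23 (69.6%, against 32.9% of all genes) and fell in 3 (13%, against 31.9%) with DUX4. With DUXC 12 rose (52.2%, against 40.2%) and 7 fell (30.4%, against 42.3%), nearer to all genes, with a median of 0.16. MYBL2, which encodes B-MYB, went from 16.6 ± 0.884 CPM with GFP to 106 ± 5.04 CPM with DUX4 and 12.1 ± 0.600 CPM with DUXC. It rose by 2.68 with DUX4 and fell by 0.45 with DUXC on the log2 scale. Its relative MYBL1 did likewise, at 1.26 and -0.66, whereas the MuvB subunit gene LIN9 rose with each, by 1.49 and 0.37. The activator E2F1 rose by 2.69 and 1.17 and the repressor E2F8 by 3.02 and 1.59. The repressor E2F7 went from 2.04 ± 0.272 CPM with GFP to 14.6 ± 1.40 CPM with DUX4 and 113 ± 6.04 CPM with DUXC, a rise of 5.79 on the log2 scale that was the largest of the list. NFYA, a subunit of the factor that binds CCAAT boxes, rose by 0.69 with DUX4 and 2.10 with DUXC, and LIN52 by 0.17 and 1.04. The pocket protein gene RBL2 fell by 0.71 and 0.38 and RB1 by 0.27 and 0.16, while TFDP2, a partner of E2F factors, fell by 0.55 with DUX4 and was not called with DUXC (0.03, adjusted p = 0.664).

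Of the CDK inhibitors and other brakes, 7 of 18 were higher (38.9%) and 6 lower (33.3%) with DUX4, near the 32.9% and 31.9% of all genes. With DUXC 13 were higher (72.2%, against 40.2%) and 3 lower (16.7%, against 42.3%). The number higher with DUXC was 10 to 12 with 1 library left out and 10 to 13 under the other alternatives. A rise of at least 2-fold with DUXC was seen in 3 of the 18, where 21.3% of all tested genes rose so far. CDKN1A, which encodes p21, fell with each, to similar means of 524 and 492 CPM from 1177 CPM with GFP. CDKN1B, which encodes p27, parted the transgenes: it went from 40.0 ± 1.17 CPM with GFP to 26.7 ± 1.04 CPM with DUX4 and 67.8 ± 1.14 CPM with DUXC. The antiproliferative gene BTG2 followed the same course, at -0.46 and 0.82. The INK4 gene CDKN2C rose by 1.32 and 1.57, the kinase gene WEE1, which blocks CDK1, by 1.48 and 0.79, and the p53 regulator MDM2 fell by 0.69 and 0.26. CDKN3, a phosphatase gene of the cell cycle, rose by 1.92 with DUX4 and was not called with DUXC (-0.01, adjusted p = 0.881). GADD45B was called lower with DUXC (-0.17), a call lost with DESeq2's size factors (adjusted p = 0.105), library size alone (0.436) and DESeq2 (0.159).

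**Figure D5:**
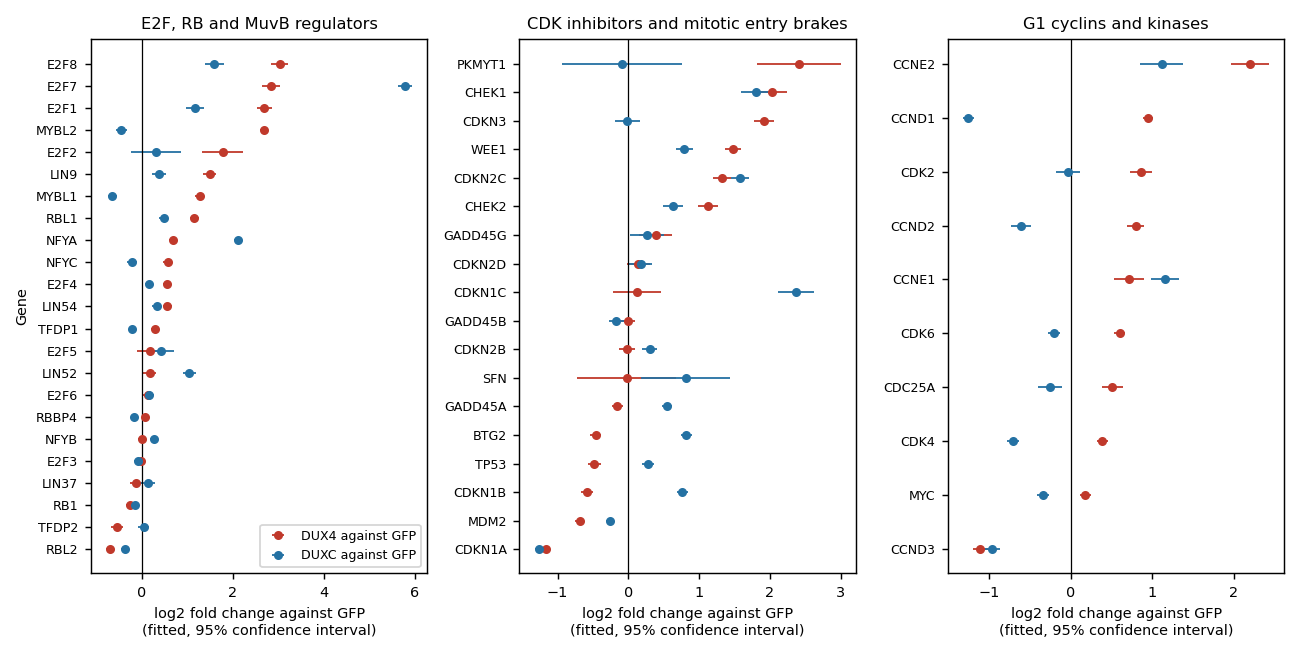
Fitted log2 fold change against GFP (horizontal axes, 95% confidence intervals) with DUX4 (red) and DUXC (blue) for the regulators of the E2F, RB and MuvB families, the CDK inhibitors and brakes, and the G1 cyclins and kinases (vertical axes, genes). MYBL2 lies at 2.68 with DUX4 and -0.45 with DUXC, E2F7 at 2.84 and 5.79, CDKN1B at -0.58 and 0.76, and CCND1 at 0.94 and -1.25.

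Genes of the G1 phase went different ways, with 9 of 10 higher and 1 lower with DUX4 (32.9% and 31.9% over all genes) and 2 higher and 7 lower with DUXC (40.2% and 42.3% over all genes). CCND1, cyclin D1, went from 341 ± 8.02 CPM with GFP to 656 ± 11.2 CPM with DUX4 and 143 ± 5.62 CPM with DUXC, log2 fold changes of 0.94 and -1.25. Its partners CDK4 and CDK6 changed by 0.39 and 0.60 with DUX4 and by -0.70 and -0.20 with DUXC. CCND3 fell with each, by 1.11 and 0.96, and the E-type cyclins CCNE1 and CCNE2 rose with each, by 0.71 and 2.20 with DUX4 and by 1.16 and 1.12 with DUXC. Of 42 DNA replication genes all rose with DUX4, MCM2, UHRF1 and MCM5 by 2.38, 2.91 and 2.88. With DUXC 30 of them rose (71.4%, against 40.2% of all genes), CDC6, ORC1 and POLA1 by 5.43, 3.48 and 1.57, and 7 fell (16.7%, against 42.3%), TYMS, RPA1 and RFC2 by 0.81, 0.79 and 0.55.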

How the data were processed

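Per the labels' protocols, a stranded messenger RNA kit was used. The authors deposited raw counts of reads for each gene, without scaling. Per the submitters' processing notes, CASAVA 1.9, Trim Galore and featureCounts were used with genome build Sscrofa11.1, with the annotation release and strand setting not given in the sources used here. Of 27339 genes, the 3855 without counts and other scarce genes were removed with filterByExpr by group, which left 15956. edgeR 4.0.16 under R 4.3.3 fitted the groups over all 9 libraries, using TMM factors (0.960 to 1.06) and robust quasi-likelihood estimation, and 3 contrasts were tested with two-sided F tests, adjusted by Benjamini-Hochberg over all tested genes, with a threshold of 0.05. Intervals are 95% intervals of the fit. The smallest p of an exact permutation test at this size is 0.1, so none was used. Libraries of a group differed beyond sampling noise (2.62 to 17.9 as chi-square per degree of freedom).

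The members and lists were chosen with earlier results of these data known, so no list test was made. Named with every library are, per role, the genes with the highest and lowest log2 fold change in each comparison with GFP, plus 8 reference genes and every gene outside the majority; of each list, up to 3 genes per direction by smallest p, plus 6 fixed genes; a gene and some neighbouring genes that were looked up are not reported here. Alternatives were DESeq2 1.42.0, limma 3.58.1 with voom, 3 other scalings, no filter, a threshold of 0.01, 2 groups only, a replicate block and leaving out each library. The pipeline was tested on simulated data. Positions are from RefSeq for Sscrofa11.1. Promoter and protein sequences were not analysed here.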

Additional observations from a re-analysis of the deposited data

How the results depend on the processing

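The number of members called higher with DUX4 was 48 under every alternative run, 40 to 44 with DUXC, and 43 for DUX4 against DUXC; lower calls numbered 2 to 3 with DUXC and 4 to 5 between the transgenes. Of 2592 single results of members under alternatives, 2550 kept their direction and call, 30 lost the call, 1 gained it and 11 changed sign. Those 11 belong to 2 genes that were not called: TOP2A between the transgenes (0.0365 without a filter, and -0.04 to 0.0469 over the fits without 1 library, above 0 without DUX4 replicate 3, DUXC replicate 2 or 3 or any GFP library: 0.0469, 0.0162, 0.0124, 0.0036, 0.0036 and 0.0034) and SPC25 with DUXC (-0.0228 without a filter, -0.0202 and -0.0253 without DUXC replicate 1 or 3, -0.0727 without GFP replicate 2, and -0.0727 to 0.1052 over all fits without 1 library).

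Library size alone moved the median of all genes by 0.125 for DUXC against GFP and by -0.101 for DUX4 against DUXC. The median of the members with DUXC was 0.955 with DESeq2's size factors (0.9548), 1.002 with library size alone and 0.9551 with DESeq2, and between the transgenes 1.6467 with library size alone. With DESeq2's size factors, 3 condensin and cohesin genes were lower with DUXC, and between the transgenes 5 genes of the anaphase-promoting complex were lower and 4 CDK inhibitors and brakes higher. With library size alone these numbers were 2, 6 and 4, with 4 regulators of the E2F list lower with DUXC and 5 condensin and cohesin genes lower between the transgenes. DESeq2 gave 3 condensin and cohesin genes lower with DUXC and 4 CDK inhibitors higher between the transgenes, and a fit of only 2 groups gave 3 condensin and cohesin genes. Leaving out 1 library gave 3 to 5 condensin and cohesin genes lower with DUXC, 1 to 3 with DUX4, and 1 to 2 G1 genes lower between the transgenes, with 1 where DUX4 replicate 1 or DUXC replicate 1 was left out. The cause was not tested.

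Residuals of same-numbered libraries correlated at -0.0258 to 0.0318 over all tested genes. Counting noise in scarce genes lowers such a correlation, so it cannot exclude that these libraries shared a culture day or preparation. With the replicate number as a block, 48 members were higher with DUX4, 44 higher and 3 lower with DUXC, and 43 higher and 4 lower between the transgenes, as without it. The motif search in promoters and its narrower window were not run.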

Other observations

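The nearest tested genes on either side of 3 members that stood apart, overlapping genes left aside, had the following changes. They were looked up after the values of the members were seen. CDC20 lies 141 bases from ELOVL1, a fatty acid elongase gene that fell by 0.80 on the log2 scale with DUXC and rose by 0.34 with DUX4, and 90 bases from the uncharacterised LOC102158889, which rose by 1.46 and 0.52. CKS2 lies 68672 bases from SHC3, an adaptor gene that rose by 2.41 with DUXC and 1.90 with DUX4. It lies 1693 bases from SECISBP2, with log2 fold changes of 0.24 and -0.07. TOP2A lies 21257 bases from IGFBP4, a binding protein of insulin-like growth factors that fell by 2.06 with DUXC and 2.12 with DUX4. It lies 18997 bases from RARA, a retinoic acid receptor gene with -1.24 and -0.04.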
